A study of Mus musculus with 6 samples.

Results

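The 34 genes described here belong to the amino acid stress response that the transcription factor ATF4 governs, and 12 of them encode cytosolic aminoacyl-tRNA synthetases. They were taken by gene symbol from deposited expression tables that hold 16799 genes in common. All 34 were found, and 33 were tested, since Chac1, an enzyme that breaks down glutathione, reached at most 0.07 FPKM (a fragment count corrected for transcript length and sequencing depth) in any library. By role they comprise 5 regulators, 8 enzymes of amino acid synthesis and its one-carbon branch, 5 amino acid transporters and the 12 synthetases. The other 4 (Ppp1r15a, Eif4ebp1, Ddit4 and Chac1) are a mixed set labelled brakes here.

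When a cell runs short of amino acids, or meets certain other stresses, kinases phosphorylate the translation factor eIF2. Most protein synthesis then slows while translation of the Atf4 mRNA increases, and ATF4 pairs with partners such as C/EBP proteins to switch on genes that make, import and charge amino acids. ATF4 is largely controlled at translation, so its mRNA level is only part of its activity.

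RNA came from BaF3 cells, a mouse line that depends on interleukin-3 and that the labels describe as pro-B. The medium of all groups held 10% serum and interleukin-3 at 2 ng/mL, and cells were sorted 24 h after nucleofection. The con group carried the pmax-Clover plasmid, which encodes a green fluorescent protein. The ICN group carried pmax-Clover-ICN, with the intracellular part of NOTCH1, and the CTdel group carried pmax-Clover-CTdel, a mutated ICN. Each group had 2 libraries, numbered 1 and 2, and each number had a deposited table of its own, so changes were taken within a table. The sources used here give neither the meaning of CTdel nor the species from which ICN was taken. Effects of ICN and of a larger plasmid cannot be told apart in changes against con. Whether replicates were separate cultures is not stated, so p-values measure only the spread between these libraries. In the fits each gene's spread was also drawn toward that of all tested genes of like level. In bulk RNA fewer cells and less RNA per cell cannot be told apart.

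FPKM sums of the libraries were 489693 to 507894, but FPKM are already corrected for depth, so the sums do not show library size. Small RNA genes of equal length put library depth at 0.962 to 1.08 times that of con replicate 1. Read totals are unknown. The transfected gene, Notch1, had 0.89 and 1.72 FPKM in the con libraries, 190 and 888 in ICN, and 84.9 and 25.4 in CTdel. Of 9 pro-B markers in the tables only Cd79a and Cd79b reached 1 FPKM in any library, and Ebf1, Rag1, Rag2 and Il7r stayed at or below 0.08, whereas the 3 interleukin-3 receptor genes summed to 304 to 553 FPKM. Of 6 T cell markers 0 reached 1 FPKM. Marker sums of other blood cells also differed between replicates. The erythroid sum, mostly Hba-a1, was higher in replicate 2 of every group, at 132 and 598 FPKM in con, 163 and 384 in ICN, and 87.8 and 224 in CTdel. The neutrophil sum, mostly S100a8 and S100a9, was 15.5 and 75.3 in con, 18.9 and 28.3 in ICN, and 7.0 and 18.3 in CTdel. The macrophage sum, mostly Adgre1, was 70.9 and 41.0, 87.4 and 34.4, and 96.2 and 69.0 in the same order. Their part in the results was not tested.

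Promoter sequence shows which of these genes carry a textbook ATF4 element next to their start. The composite C/EBP-ATF element was searched as TGATGNAA on both strands, from 250 bases before to 50 after each RefSeq start (GRCm38.p6). It was present in 10 of the 27 members that had a promoter entry (37.0%), namely Asns, Chac1, Trib3, Nupr1, Pycr1, Aars, Gars, Iars, Tars and Yars, and in 4.51% of the 27025 genes with an entry. The windows below, on the strand of the gene from 5′ to 3′, show the element in capitals for the members with the highest levels and for Asns, Chac1 and Trib3. A match is a description of letters and does not show binding. The members were chosen as genes of this response, so the shares of 37.0% and 4.51% are no test of it.
Asns, chr6:7693195-7693262, minus strand: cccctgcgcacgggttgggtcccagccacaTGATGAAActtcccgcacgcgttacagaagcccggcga
Chac1, chr2:119351019-119351086, plus strand: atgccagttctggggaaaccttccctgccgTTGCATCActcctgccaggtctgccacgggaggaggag
Trib3, chr2:152344031-152344076, minus strand: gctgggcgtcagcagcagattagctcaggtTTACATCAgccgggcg
Gars, chr6:55037941-55038008, plus strand: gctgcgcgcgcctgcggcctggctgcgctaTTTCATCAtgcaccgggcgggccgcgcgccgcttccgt
Aars, chr8:111033700-111033767, plus strand: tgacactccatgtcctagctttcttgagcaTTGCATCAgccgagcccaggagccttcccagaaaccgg
Aars, chr8:111033821-111033871, plus strand: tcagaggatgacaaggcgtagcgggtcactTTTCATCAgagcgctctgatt
Tars, chr15:11399636-11399703, minus strand: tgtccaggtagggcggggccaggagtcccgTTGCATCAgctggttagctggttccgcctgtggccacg

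In Asns the element reads along the gene, and in the other windows it reads on the opposite strand. Genes with the same element differed widely in level, and in con replicate 1 Chac1 was listed at 0 while Gars had 197.98 FPKM and Asns 198.83 FPKM.

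The control libraries did not match each other in this response, and this bears on every comparison with con. Differences were taken of log2(FPKM + 1), where the added 1 shrinks those of low genes. Of the 33 tested members 29 were higher in con replicate 1 than in con replicate 2, beside 52.6% of all tested genes, and 9 were higher by over 1, beside 4.38%, against 0 that were lower by over 1, beside 2.09%. The median difference was 0.58 for the members and 0.03 for all 11050 tested genes. By role it was 2.47 for the regulators, 1.41 for the brakes, 0.50 for the synthetases, 0.43 for the transporters and 0.33 for the synthesis enzymes. Nupr1, a small stress-induced chromatin protein, had the largest difference of all tested genes in that direction, 4.51.

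The ICN libraries differed the other way. Of 33 members 31 were lower in ICN replicate 1 than in ICN replicate 2, beside 47.4% of all tested genes, and 7 by over 1, beside 4.11%. There was a median difference of −0.49 for the members and −1.42 for the regulators. In CTdel 20 of 33 were higher in replicate 1, beside 46.3% of all tested genes, and 2 by over 1, beside 2.07%. ICN replicate 2 was also the library with the highest Notch1, and the part of the Notch1 level in its values was not tested.

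**Figure D1:**
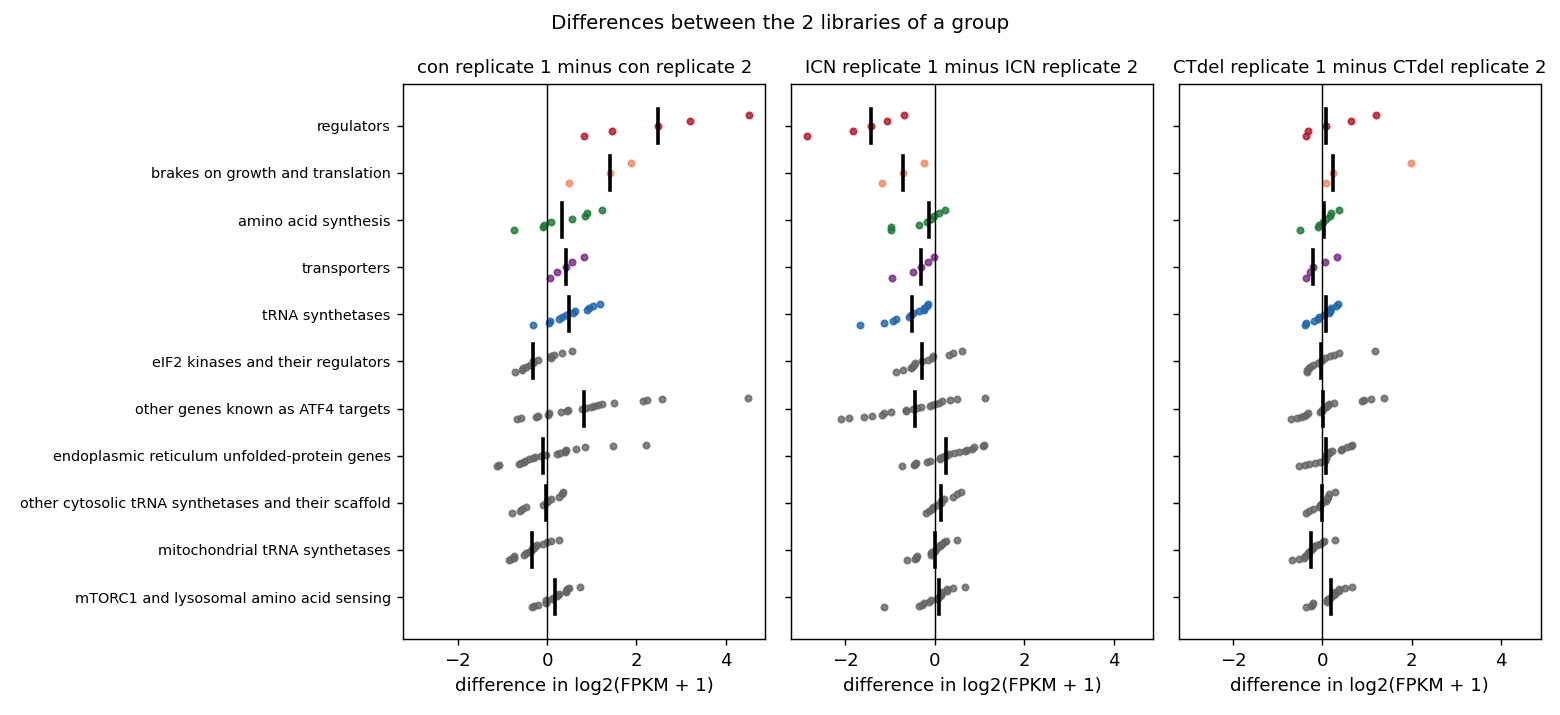
Difference between replicate 1 and replicate 2 of the same group for each gene, on the log2(FPKM + 1) scale, by role and for the other pathway lists, with con, ICN and CTdel in separate panels. Points are genes and the black bar is the median, which for the regulators is 2.47 in con and −1.42 in ICN.

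Among the regulators, the level of Atf4 itself was 359 and 202 FPKM in con replicates 1 and 2, 239 and 383 in ICN, and 208 and 198 in CTdel. The groups con and ICN overlapped, and both CTdel libraries lay below both ICN libraries. The fitted change was 0.17 in ICN (SE 0.363, limma adjusted p = 0.842) and −0.41 in CTdel (SE 0.363, limma adjusted p = 0.765), and each took the opposite sign when certain single libraries were left out.

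Ddit3 encodes CHOP, a factor of prolonged stress that can promote cell death. It had 124 and 21.5 FPKM in con, 89.7 and 242 in ICN, and 48.5 and 20.7 in CTdel. ICN replicate 2 was the highest library and CTdel replicate 2 the lowest, and the fitted change in ICN was 1.49 (SE 0.844, limma adjusted p = 0.434), against −0.69 in CTdel (limma adjusted p = 0.840). Ddit3 overlaps Mars at its end in GRCm38.p6 (chromosome 10, 127290793 to 127296291 and 127296221 to 127311786), and the sources used here do not say whether counting used strand.

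Trib3 encodes a pseudokinase that is a classical ATF4 target and dampens the response. Its level was 155 and 16.0 FPKM in con, 13.2 and 101 in ICN, and 13.6 and 17.2 in CTdel. One library in each of con and ICN was high and the other 4 lay between 13.2 and 17.2, so all 3 groups overlapped. Among the replicate 1 libraries Trib3 had the lowest difference of all tested genes in both ICN against con (−3.45) and CTdel against con (−3.42), which share con replicate 1. Among the replicate 2 libraries the values were 2.59 and 0.10. The fitted changes were −0.43 in ICN (SE 1.27, limma adjusted p = 0.885) and −1.66 in CTdel (SE 1.27, limma adjusted p = 0.715).

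Nupr1 followed the same split, with 95.1 and 3.22 FPKM in con, 17.7 and 65.6 in ICN, and 24.5 and 15.3 in CTdel. Cebpg, a C/EBP protein that dimerizes with ATF4, had 35.6 and 12.4 in con, 12.1 and 26.6 in ICN, and 10.2 and 13.4 in CTdel. For both genes con replicate 1 was the highest library, and the fitted changes (Nupr1 0.81 and 0.02, Cebpg −0.22 and −0.81 in ICN and CTdel) had limma adjusted p of at least 0.689. As a group the regulators had a median difference from con of −1.48 (replicate 1) and 2.59 (replicate 2) for ICN, and of −1.71 and 0.10 for CTdel.

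**Figure D2:**
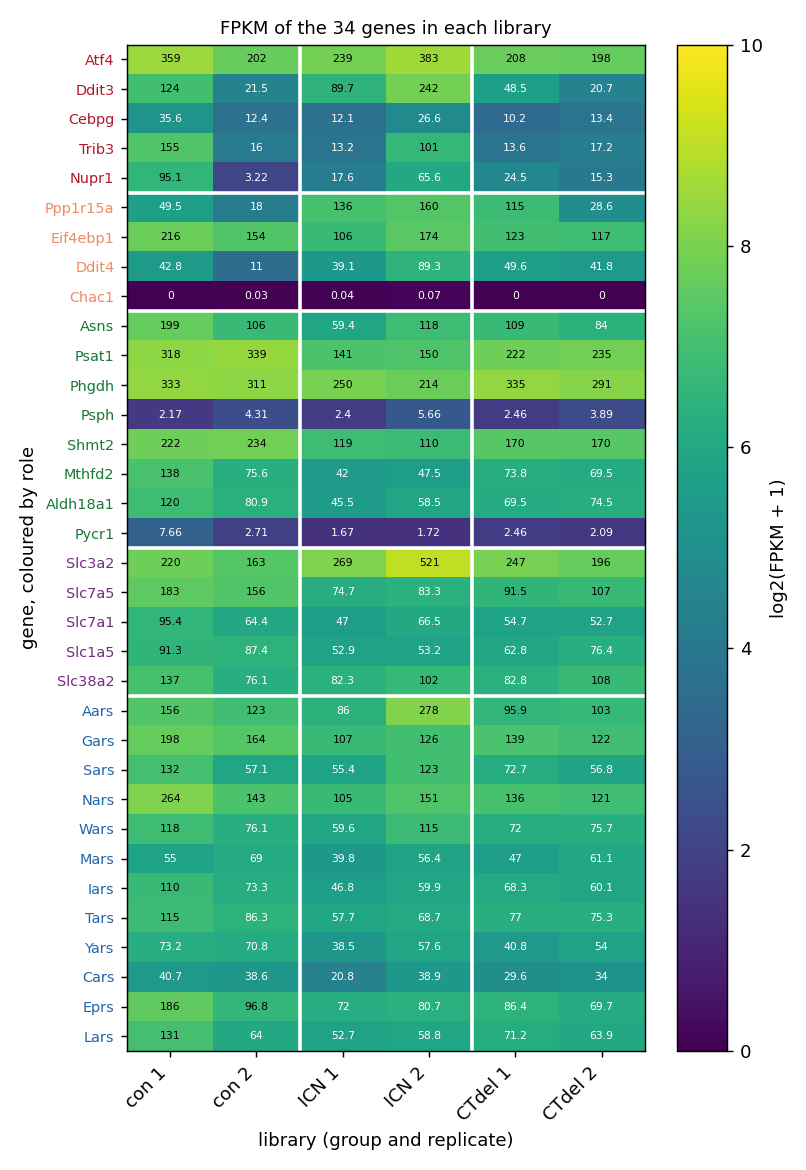
FPKM of the 34 genes (rows, by role) in the 6 libraries (columns, by group and replicate), with the colour scale and the printed values giving the level. Trib3 reads 155 in con replicate 1 and 16.0 in con replicate 2, while Psat1 is at 318 and 339 in con and at 141 and 150 in ICN.

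In the mixed set labelled brakes, Ppp1r15a and Ddit4 had fitted changes above con in ICN and in CTdel, and Eif4ebp1 had lower ones. Ppp1r15a encodes GADD34, which restores translation by bringing a phosphatase to eIF2, so it brakes the stress response and not translation. Its level was 49.5 and 18.01 FPKM in con, 136 and 160 in ICN, and 115 and 28.7 in CTdel. Both ICN libraries lay above both con libraries, and CTdel overlapped con only through its replicate 2. Means were 33.7 ± 22.2 for con, 148 ± 17.3 for ICN and 72.0 ± 61.2 for CTdel (SD, n = 2). The fitted change in ICN was 2.26 (SE 0.512, limma adjusted p = 0.184), the largest among the members, and that in CTdel was 0.92 (limma adjusted p = 0.609). Fits of only the groups compared leave 1 residual degree of freedom and pair libraries by number, a pairing that was not established. In them Ppp1r15a passed in ICN (limma adjusted p = 0.0276) and in CTdel (limma adjusted p = 0.0337), beside 1.47% and 6.61% of all tested genes. With single libraries left out its change ran from 1.30 to 3.23 in ICN and from 0.23 to 1.62 in CTdel.

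Ddit4, an inhibitor of the growth kinase complex mTORC1, had 42.8 and 10.97 FPKM in con, 39.1 and 89.3 in ICN, and 49.6 and 41.8 in CTdel. Con replicate 2 was far below the other 5 libraries. The fitted changes were 1.39 in ICN (limma adjusted p = 0.379) and 1.02 in CTdel (limma adjusted p = 0.658), and that in ICN ran from 0.23 to 2.56 with single libraries left out. Eif4ebp1, which holds back cap-dependent translation, averaged 185 ± 44.2 (con), 140 ± 48.2 (ICN) and 120 ± 4.73 (CTdel) FPKM (SD, n = 2), and only the CTdel libraries lay wholly below con. Chac1 was listed at 0 and 0.03 FPKM in con, 0.04 and 0.07 in ICN, and 0 and 0 in CTdel, too low to compare.

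Of the enzymes of serine synthesis and the mitochondrial folate branch, Psat1, Phgdh and Shmt2 had replicates close together and ICN low, while Mthfd2 was low in ICN with con replicates far apart and Psph did neither. Psat1, which makes phosphoserine, had 318 and 339 FPKM in con, 141 and 150 in ICN, and 222 and 235 in CTdel. The 3 groups did not overlap, and CTdel lay between con and ICN. Within the tables the difference between ICN and con was −1.17 and −1.17, and that between CTdel and con was −0.52 and −0.52. The fitted change of −1.17 in ICN had an SE of 0.187 and a limma adjusted p of 0.123.

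Shmt2, which moves a carbon unit from serine to folate in mitochondria, had 222 and 234 FPKM in con, 119 and 110 in ICN, and 170 and 170 in CTdel. Its groups also did not overlap, with fitted changes of −0.98 in ICN (SE 0.192, limma adjusted p = 0.159) and −0.42 in CTdel (limma adjusted p = 0.501). Mthfd2, the next enzyme of that folate branch, had 138 and 75.6 in con, 42.0 and 47.5 in ICN, and 73.8 and 69.5 in CTdel. Its ICN libraries were the lowest and its fitted change was −1.18 (SE 0.293, limma adjusted p = 0.204), with con replicate 1 well above con replicate 2. Leaving out single libraries gave −1.63 to −0.73 in ICN.

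Phgdh, the first enzyme of serine synthesis, had 333 and 311 FPKM in con, 250 and 214 in ICN, and 335 and 291 in CTdel. Both ICN libraries lay below the other 4, and CTdel overlapped con. The fitted change in ICN was −0.47 (limma adjusted p = 0.325). Psph, the last enzyme of serine synthesis, was low throughout, from 2.17 to 5.66 FPKM, and its groups overlapped.

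In proline synthesis, Aldh18a1 averaged 100.2 ± 27.3 (con), 52.0 ± 9.23 (ICN) and 72.0 ± 3.5 (CTdel) FPKM (SD, n = 2). Pycr1, the last step, had 7.66 and 2.71 FPKM in con, 1.67 and 1.72 in ICN, and 2.46 and 2.09 in CTdel. Both genes were lower than con in all ICN and CTdel libraries, and for Pycr1 the fitted changes were −1.07 (limma adjusted p = 0.280) and −0.79 (limma adjusted p = 0.476). With single libraries left out they ran from −1.65 to −0.50 in ICN and from −1.37 to −0.22 in CTdel. Asns, which makes asparagine and is the best known marker of the response, had 199 and 106 in con, 59.4 and 118 in ICN, and 109 and 84.0 in CTdel. ICN replicate 2 lay between the con libraries, and the fitted changes of −0.79 and −0.60 had limma adjusted p of 0.430 and 0.702.

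By fit in ICN against con, 1 of the 5 amino acid transporters, Slc3a2, was higher and the other 4 were lower. Slc3a2 and Slc7a5 encode the heavy and light chains of LAT1, the carrier of large neutral amino acids. Slc3a2 had 220 and 163 FPKM in con, 269 and 521 in ICN, and 247 and 196 in CTdel. Slc7a5 had 183 and 156 in con, 74.7 and 83.3 in ICN, and 91.5 and 107 in CTdel. Thus ICN was above con for the heavy chain and below it for the light chain in both libraries. The fitted changes in ICN were 0.98 for Slc3a2 (SE 0.370, limma adjusted p = 0.317) and −1.09 for Slc7a5 (SE 0.215, limma adjusted p = 0.163). With single libraries left out they ran from 0.31 to 1.65 for Slc3a2 and from −1.30 to −0.88 for Slc7a5.

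The ratio of Slc3a2 to Slc7a5, both in FPKM, was 1.20 and 1.04 in con, 3.60 and 6.26 in ICN, and 2.70 and 1.83 in CTdel. It was higher in all 4 libraries with an ICN plasmid than in the con libraries. For either form alone against con, an exact permutation test of 2 against 2 libraries cannot give a p below 0.333. Slc1a5, a glutamine carrier, averaged 89.3 ± 2.73 (con), 53.1 ± 0.212 (ICN) and 69.6 ± 9.58 (CTdel) FPKM (SD, n = 2), with no overlap between groups. Slc7a1, a carrier of basic amino acids, and Slc38a2, a carrier of small neutral ones, ranged from 47.1 to 95.4 and from 76.1 to 137 FPKM, with ICN overlapping con in both.

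**Figure D3:**
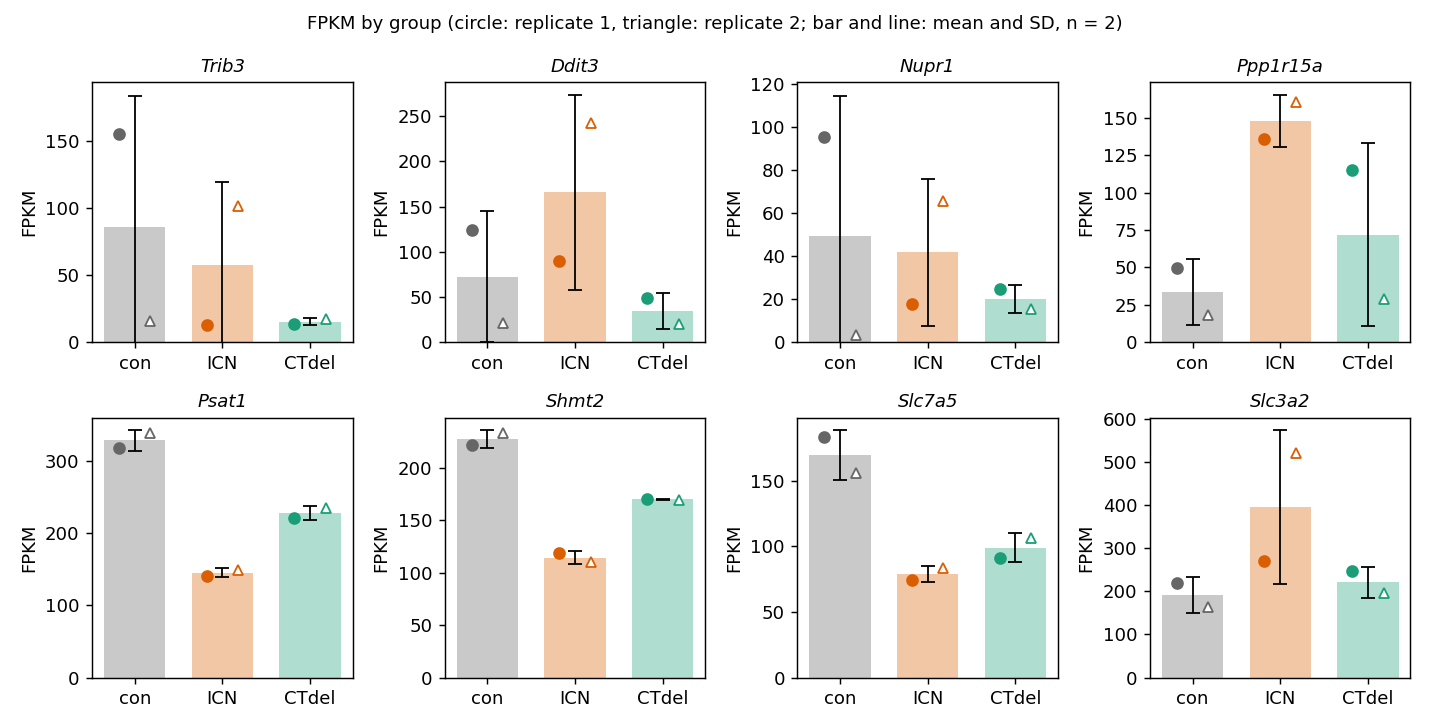
FPKM of 8 genes in the 3 groups, with bars for the mean, lines for the SD (n = 2, shown from 0 upward) and points for the libraries. Replicates lie close together for Psat1, Shmt2 and Slc7a5 and far apart for Trib3, Ddit3 and Nupr1, where the con libraries are at 155 and 16.0, 124 and 21.5, and 95.1 and 3.22.

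The 12 aminoacyl-tRNA synthetases, which load each tRNA with its amino acid, were all abundant, from 20.8 FPKM (Cars in ICN replicate 1) to 278 (Aars in ICN replicate 2). Among the replicate 1 libraries they had a median difference from con of −0.98 in ICN and −0.70 in CTdel, and among the replicate 2 libraries of −0.19 and −0.21. Gars had 198 and 164 FPKM in con, 107 and 126 in ICN, and 139 and 122 in CTdel, with both forms below con in all libraries. Tars (100.9 ± 20.7, 63.2 ± 7.77 and 76.2 ± 1.19 in con, ICN and CTdel; SD, n = 2) and Iars (91.7 ± 25.9, 53.3 ± 9.26 and 64.2 ± 5.76) had the same order of means.

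Eprs, which charges both glutamate and proline tRNAs, had 186 and 96.8 FPKM in con, 72.0 and 80.7 in ICN, and 86.4 and 69.7 in CTdel. Lars had 131 and 64.0, 52.7 and 58.8, and 71.2 and 63.9. In these the con libraries differed more from each other than con replicate 2 did from ICN. Yars was the steadiest in con, at 73.2 and 70.8, with 38.5 and 57.6 in ICN and 40.8 and 54.0 in CTdel.

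All 12 synthetases were lower in ICN replicate 1 than in ICN replicate 2, as the regulators were. The differences were largest for Aars (−1.68), Sars (−1.14) and Wars (−0.94), with Cars next (−0.87). Aars had 156 and 123 FPKM in con, 86.1 and 278 in ICN, and 95.9 and 103 in CTdel, and Sars had 132 and 57.1, 55.4 and 123, and 72.7 and 56.8. The ICN libraries lay on both sides of con for Aars. Nars, Wars, Cars and Mars had means of 203 ± 85.7, 97.2 ± 29.7, 39.7 ± 1.49 and 62.0 ± 9.89 in con and of 128 ± 32.5, 87.3 ± 39.2, 29.8 ± 12.7 and 48.1 ± 11.7 in ICN (SD, n = 2). In CTdel their means were 129 ± 10.3, 73.9 ± 2.59, 31.8 ± 3.10 and 54.1 ± 10.0.

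Counted over all roles, limma with Benjamini-Hochberg adjustment over all tested genes called 0 of 33 members in ICN against con, beside 0.0362% of all tested genes. At an unadjusted p under 0.05 there were 15 of 33, beside 15.0% of all tested genes. Of these, 13 were lower, beside 5.03%, and 2 (Ppp1r15a and Slc3a2) were higher, beside 10.0%. Both ICN libraries lay below both con libraries for 14 members, beside 19.6%, and above them for 2, beside 22.7%.

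The tables divided the members. ICN was lower than con within both tables for 15 members, beside 26.7% of all tested genes, and lower in the replicate 1 pair but higher in the replicate 2 pair for another 15, beside 21.2%. The reverse split occurred for 0 members, beside 21.7%. ICN was higher in both tables for 3 members, Ppp1r15a, Psph and Slc3a2, beside 29.8%. The members' median fitted change was −0.47, and it was −0.16 without con replicate 1, −0.87 without con replicate 2, −0.08 without ICN replicate 1 and −0.89 without ICN replicate 2. Over all tested genes it was at most 0.03 in these fits. Without ICN replicate 1 the ICN values rest on ICN replicate 2 alone. The fit then put, among others, Psat1 (−1.17), Shmt2 (−1.06) and Slc7a5 (−1.01) below con. It put Ddit3 (3.11), Slc3a2 (1.65), Ppp1r15a (3.23), Aars (1.06), Nupr1 (3.02) and Ddit4 (2.51) above con. Without ICN replicate 2 it called 2, Mthfd2 and Asns, beside 1.33%.

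In CTdel against con, limma called 0 of 33 members after adjustment, beside 1.41% of all tested genes. At an unadjusted p under 0.05 it gave 4 (Eprs, Psat1, Slc7a5 and Yars), beside 11.8%. Of these 4 were lower, beside 3.99%, and 0 were higher, beside 7.79%. Both CTdel libraries lay below both con libraries for 18 members, beside 23.5%, and above them for 0, beside 18.3%. CTdel was lower than con within both tables for 24 members, beside 35.8%, and higher in both for 3 (Ddit4, Ppp1r15a and Slc3a2), beside 26.2%. The replicates disagreed for the others, with 4 lower only in replicate 1, beside 21.0%, and 2 lower only in replicate 2, beside 16.4%. The median fitted change was −0.45 (all tested genes −0.06), and leaving out con replicate 1 gave −0.05, leaving out con replicate 2 gave −0.92.

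**Figure D4:**
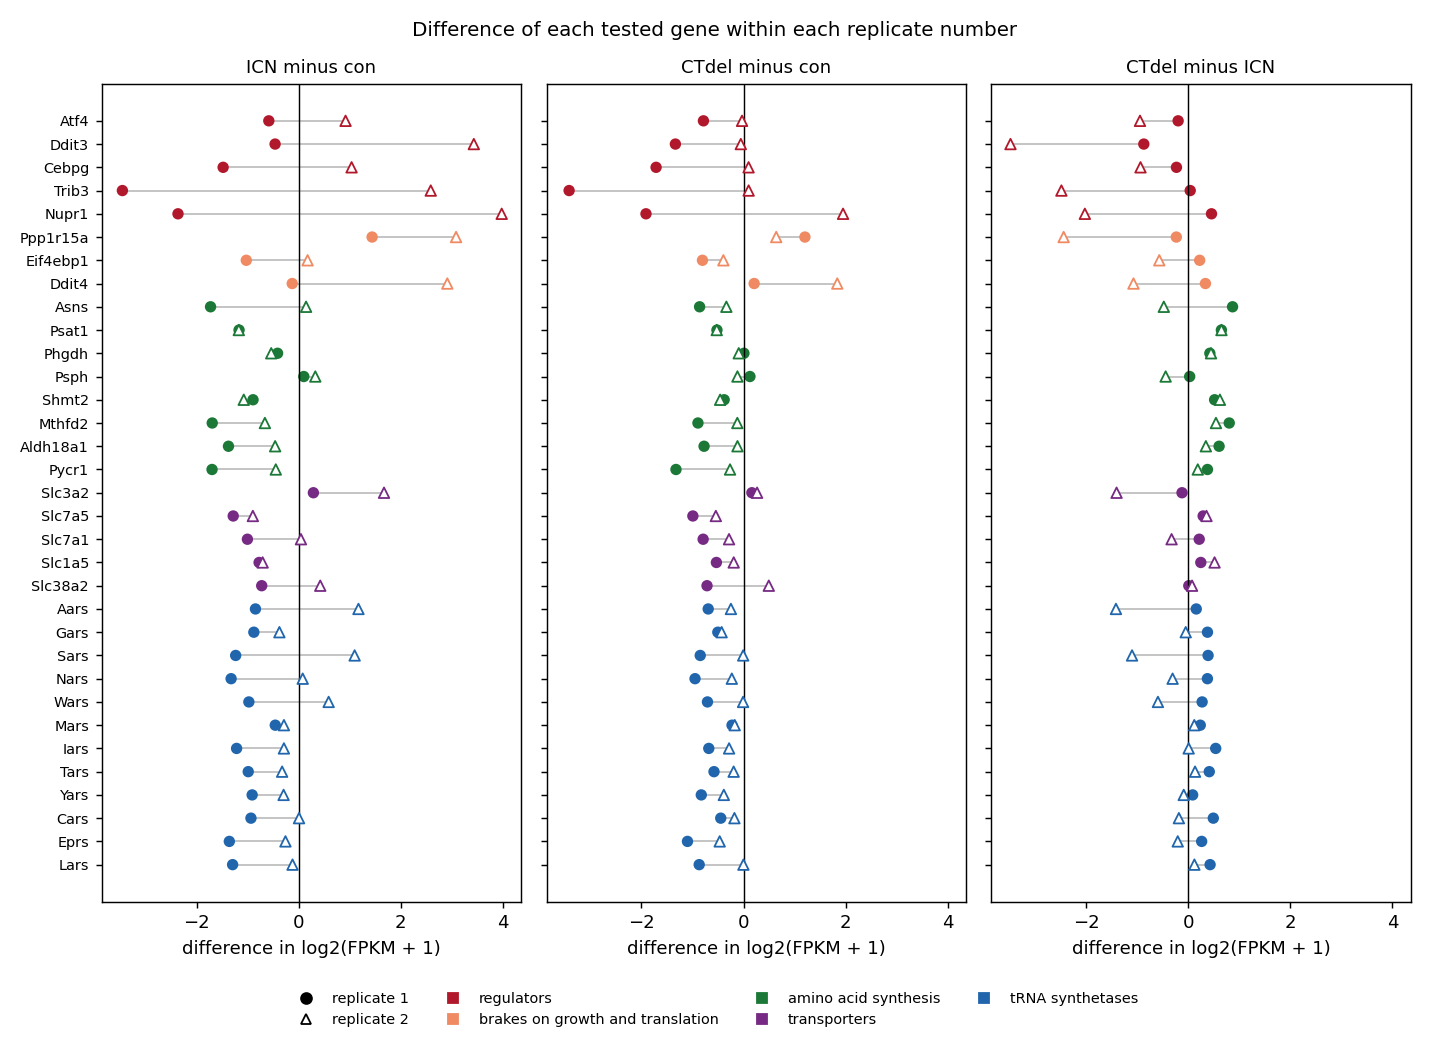
Differences on the log2(FPKM + 1) scale for each tested gene, by role, for replicate 1 and for replicate 2, in panels for ICN against con, CTdel against con and CTdel against ICN. Points are single within-table differences, and Psat1 has −1.17 in both tables for ICN while Trib3 has −3.45 and 2.59.

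The forms were also compared with each other. Notch1 had 190 and 888 FPKM in ICN and 84.9 and 25.4 in CTdel. Form and Notch1 level therefore cannot be told apart in this comparison. In the main fit this difference rests on no con library, but its SE and p do. They use a spread shared by all 6 libraries, the con libraries included. After adjustment limma called 0 of 33 members in CTdel against ICN, beside 0.0181% of all tested genes, and at an unadjusted p under 0.05 it gave 4, beside 7.13%. Psat1 (0.65, limma adjusted p = 0.640) and Shmt2 (0.57, limma adjusted p = 0.663) were the 2 higher in CTdel, beside 3.49%. Ddit3 (−2.18, limma adjusted p = 0.688) and Ppp1r15a (−1.34, limma adjusted p = 0.688) were the 2 lower, beside 3.64%. With single libraries left out these ran from −3.81 to −0.55 for Ddit3 and from −2.30 to −0.38 for Ppp1r15a.

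Both CTdel libraries lay above both ICN libraries for 11 members, beside 15.6%, and below them for 4 (Atf4, Ddit3, Ppp1r15a and Slc3a2), beside 25.0%. Within both tables CTdel was above ICN for 13 members, beside 24.0%, and below it for 5, beside 38.3%. It was above in replicate 1 and below in replicate 2 for 15, beside 11.8%, and the reverse for 0, beside 25.3%. The synthesis enzymes had median differences of 0.56 and 0.39 for replicates 1 and 2, and the regulators −0.20 and −2.03. Without ICN replicate 1 the fit called 7 members, all lower in CTdel (Atf4, Ddit3, Slc3a2, Ppp1r15a, Sars, Trib3 and Aars), beside 8.06% of all tested genes, and those values rest on ICN replicate 2. Without ICN replicate 2 it called 0, beside 0.0814%.

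Other genes of the pathway were read from 6 lists. Among 20 tested of 27 other genes known as ATF4 targets, 1 was called in CTdel against con, beside 1.41% of all tested genes. In ICN against con 0 were called, beside 0.0362%. Slc7a11, the cystine carrier, had 11.7 and 5.94 FPKM in con, 47.1 and 21.0 in ICN, and 54.2 and 20.3 in CTdel. Neither form overlapped con. It rose in CTdel by a fitted 1.87 (SE 0.218, limma adjusted p = 0.0261), while the 1.80 in ICN had a limma adjusted p of 0.103, and the forms differed by 0.08 (limma adjusted p = 0.941). The call in CTdel was lost without the filter on low genes (limma adjusted p = 0.139), without the table term (0.241), and without con replicate 1 (0.0632), CTdel replicate 1 (0.160) or CTdel replicate 2 (0.0618). In ICN it passed in the fit of only the groups compared (limma adjusted p = 0.0267).

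In the same list Sqstm1, an autophagy receptor, had a fitted change of 1.87 in ICN (limma adjusted p = 0.280), and Ero1l, an oxidase of the endoplasmic reticulum, one of −1.35 in CTdel (limma adjusted p = 0.369). Atf5, a factor translated much as ATF4 is, repeated the split of the regulators, at 160 and 33.3 FPKM in con, 37.7 and 165 in ICN, and 40.5 and 40.6 in CTdel. The list had a median difference of 0.83 between con replicates 1 and 2, beside 0.58 for the members.

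The remaining lists had 0 genes called in either form against con, beside 0.0362% of all tested genes in ICN and 1.41% in CTdel. The 13 eIF2 kinase and regulator genes had medians against con of 0.11 and −0.07 in ICN replicates 1 and 2, with Eif2ak2, the kinase PKR, at a fitted 0.87 (limma adjusted p = 0.281) and Impact at 0.72 (limma adjusted p = 0.280). The 20 genes of the unfolded-protein response of the endoplasmic reticulum had −0.04 and −0.56, and their con replicates differed by a median of −0.08. Dnajb9, a chaperone partner of that response, had a fitted 1.27 (limma adjusted p = 0.290) and Sdf2l1 −0.92 (limma adjusted p = 0.424).

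The 11 other cytosolic synthetase and scaffold genes had medians of −0.24 and −0.39 in ICN and −0.24 and −0.33 in CTdel, with Eef1e1 (−0.77) and Farsb (−0.75) lowest in ICN. The 16 mitochondrial synthetases had −0.15 and −0.52 in ICN and −0.19 and −0.19 in CTdel, with Mars2 (−0.78) and Iars2 (−0.53) furthest from con. Of 20 genes of mTORC1 and lysosomal amino acid sensing 16 were tested, with medians of −0.08 and −0.01 in ICN and −0.06 and −0.01 in CTdel, and Flcn had the largest value in ICN, 1.14 (limma adjusted p = 0.324). The con replicates differed by medians of −0.02, −0.35 and 0.17 in these 3 lists, beside 0.58 in the members.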

How the data were processed

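Per the labels' protocols, RNA of 6 libraries was prepared with the MGIEasy mRNA kit. The authors deposited FPKM per gene in a separate table per replicate number, as the file headers show. The submitters' processing notes name HISAT2, Bowtie2, RSEM, mm10 and hg19, without versions or roles. The test was limma 3.58.1 (R 4.3.3) on log2(FPKM + 1), 2-sided, with a spread that followed intensity. Genes were kept where both tables listed them and 2 or more libraries reached 1 FPKM, which left 11050, and p was adjusted over these by Benjamini-Hochberg (threshold 0.05). Terms for the 3 groups and for the table were fitted to all 6 libraries, with 2 residual degrees of freedom and a median prior of 3.82. The script was tested on simulated data. Promoters and coordinates are from RefSeq (GRCm38.p6), and 27 of the 34 genes had a promoter entry.

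The members and lists were chosen with earlier results of these data known. Values of all libraries were to be given for Atf4, Ddit3, Asns, Chac1, Trib3, called members and the 5 largest changes in ICN and in CTdel, and for lists the called genes or else the 2 largest changes. Other members given library by library, Atf5, and the ratio of Slc3a2 to Slc7a5 were chosen after their values were seen. Cebpg, Ppp1r15a, Psph, Shmt2, Aars and Wars overlap other protein-coding genes, as Ddit3 and Mars do, so their values are uncertain to that extent. Alternatives covered the table term, pseudocount, filter, scaling, trend, libraries fitted and each library left out.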

Additional observations from a re-analysis of the deposited data

How the results depend on the processing

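In fits of only the 2 groups compared, which leave 1 residual degree of freedom, 1 member was called in ICN against con and 1 in CTdel against con. With a library left out, calls ran from 0 to 9 in ICN against con, 0 to 1 in CTdel against con and 0 to 7 in CTdel against ICN, while the share of all tested genes called ran from 0.0995% to 13.3%, 0.986% to 6.62% and 0.0181% to 8.06%. No other setting called a member. In the fit with no replicate block, 0 members were called in each comparison and the medians stayed the same. Deviations of same-numbered libraries correlated at −0.0988 (con and ICN), 0.326 (con and CTdel) and 0.236 (ICN and CTdel), and the labels do not say what a number shares, so pairing was not established. All-gene calls went from 4, 156 and 2 to 3, 130 and 2 with no replicate block, and to 162, 730 and 3 with only the groups compared. With no filter they were 0, 0 and 0.

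Quantile normalization put Nupr1 in CTdel against con at −0.0932. Among the 16 genes whose changes were rechecked by name, the other reversals came with a library left out. In ICN against con the values then ran from −0.40 to 0.73 for Atf4, −0.14 to 3.11 for Ddit3, −1.60 to 0.0147 for Asns, −2.82 to 1.96 for Trib3, −1.30 to 0.86 for Cebpg and −1.74 to 3.36 for Nupr1. In CTdel against con they ran from −0.97 to 0.16 for Atf4, −1.99 to 0.60 for Ddit3, −1.20 to 0.0009 for Asns, −4.05 to 0.73 for Trib3, −0.14 to 2.19 for Ddit4, −1.89 to 0.28 for Cebpg, −2.53 to 2.57 for Nupr1, −0.16 to 0.59 for Slc3a2 and −0.10 to 0.0139 for Phgdh. In CTdel against ICN they ran from −0.61 to 0.997 for Asns, −3.37 to 0.92 for Trib3, −1.48 to 0.74 for Ddit4, −1.39 to 0.22 for Cebpg, −2.995 to 1.42 for Nupr1, −0.0809 to 0.64 for Pycr1 and −0.11 to 0.26 for Slc7a11. The cause was not tested. Psat1 in ICN stayed between −1.17 and −1.17 and Shmt2 between −1.06 and −0.91. Without a change of sign, values ran from −0.96 to −0.06 for Mthfd2 in CTdel against con, and in CTdel against ICN from −1.14 to −0.01 for Atf4, −1.43 to −0.10 for Slc3a2, 0.35 to 0.99 for Mthfd2 and 0.19 to 0.45 for Slc7a5. For the 18 members with no fitted change printed, 33 of the values with a library left out and 3 under other settings changed sign. A library left out leaves 1 in its group, which is assumed to vary like the others. FPKM give no read totals, so no counting error could be set on low genes such as Chac1, Psph and Pycr1.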
